A study of Mus musculus with 8 samples.

Results

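Nnt and 8 nuclear genes of mitochondrial redox defence were followed in thymocytes of 2 mouse strains. The 9 genes, Nnt, Sod2, Prdx3, Prdx5, Txn2, Txnrd2, Gpx1, Gpx4 and Glrx2, were taken by name from the 23420 gene symbols in the count files. All 9 were listed there and 8 had enough counts to be tested, Txnrd2 being at 0 in every library. The samples were RNA from the thymus of wild-type mice in 4 groups of 2 libraries each: sorted DP thymocytes of B6, whole thymocytes of B6, sorted DP thymocytes of BALB and whole thymocytes of BALB. DP (double-positive) thymocytes carry both CD4 and CD8, and here the sort gate took CD69-negative cells with low or medium staining for the T cell receptor antibody H57. The labels give neither the substrain behind the names B6 and BALB nor an age, and they do not say that the 2 libraries of a group came from separate mice, so the p-values measure only the spread between these libraries.

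NNT sits in the inner mitochondrial membrane and uses the proton gradient to make NADPH from NADH in the matrix. That NADPH keeps 2 chains of peroxide removal reduced. In one, thioredoxin reductase (Txnrd2) reduces thioredoxin (Txn2), which reduces the peroxiredoxins Prdx3 and Prdx5. In the other, glutathione feeds the peroxidases Gpx1 and Gpx4 and the glutaredoxin Glrx2. Sod2 stands upstream of both, turning the superoxide that leaks from the respiratory chain into hydrogen peroxide. The C57BL/6J substrain is known for an Nnt allele that lacks internal exons and yields no functional protein, while other B6 substrains and BALB mice carry the intact gene, so the level of Nnt in B6 against BALB was the first comparison of interest. The mm10 genome to which the reads were aligned is that of C57BL/6J, and the files give 1 count per gene, so neither the exons missing from that genome nor the substrain of the B6 mice can be read from these counts.

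The libraries held between 2632083 and 5974684 counts in genes. One library stood apart: in BALB DP replicate 1, 30.8% of reads were in genes, against 22.6% to 26.3% in the other 7, and the ribosomal RNA gene Rn45s took 3.14% of counts, against 5.11% to 8.35%. The whole-thymocyte libraries of BALB held 12313 Xist and 0 Ddx3y counts in replicate 1 and 203 and 725 in replicate 2, so these 2 are not repeat libraries of 1 sample. All libraries of the other groups held 6 to 24 Xist and 444 to 1177 Ddx3y counts. Only BALB whole replicate 1 thus had the counts of a female, and sex is not balanced in comparisons with BALB whole thymocytes. Summed over 10 DP thymocyte markers, levels were 21625 to 22628 CPM (counts scaled to library size with TMM factors) in B6 DP and 13513 to 14109 in B6 whole thymocytes, and 14562 to 14718 in BALB DP and 10161 to 10874 in BALB whole thymocytes. Markers of mature thymocytes summed to 97.3 to 120 CPM in the 4 DP libraries and 392 to 583 in the 4 whole-thymocyte libraries. Within each strain the sorted libraries were thus higher in DP markers and lower in markers of later cells than whole thymocytes. Between strains the DP marker sum of BALB DP lay far below that of B6 DP and little above that of B6 whole thymocytes.

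RefSeq promoter sequences on GRCm38.p6 were at hand for 8 of the 9 genes, with 14 promoters of 300 bases around the start, and none was given for Nnt. Gpx4 and Glrx2 have 4 windows each, some of which overlap within the gene, so the 14 are not separate pieces of sequence. The promoters are the C57BL/6J reference and not read from these mice. The core of the antioxidant response element (TGACNNNGC, both strands), where NRF2 and BACH1 bind, was not among the letters of any of the 14 windows, while 12.4% of all 32851 promoters in the table held it. The ETS core CCGGAAG, searched on both strands, is common in promoters of nuclear genes for mitochondrial proteins. It was found in 2 of the 14 windows, Prdx5 with 2 matches and Txn2 with 1, against 8.86% of all promoters. The nuclear respiratory factor core GCGCANGC was found in 3 of the 14 windows, of Gpx4 and Txnrd2, against 9.95% of all promoters. The Gpx4 windows that hold it overlap. A match is a description of the letters and not a bound site. Shown are the promoters of Prdx5 and Txn2, which hold the ETS core (capitals, on either strand), and that of Gpx1, the one member other than Nnt that differed between the populations below, which holds none of the 3 motifs. They lie at chr19:6910057-6910356 (minus strand), chr15:77928945-77929244 (minus strand) and chr9:108338830-108339129 (plus strand) and are written 5′ to 3′ along the gene.
Prdx5: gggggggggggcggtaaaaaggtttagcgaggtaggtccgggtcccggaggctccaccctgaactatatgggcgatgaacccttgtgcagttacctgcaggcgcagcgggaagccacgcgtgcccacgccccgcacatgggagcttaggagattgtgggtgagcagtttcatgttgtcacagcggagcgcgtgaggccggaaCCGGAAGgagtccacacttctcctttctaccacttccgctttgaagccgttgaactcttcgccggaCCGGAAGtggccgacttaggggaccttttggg
Txn2: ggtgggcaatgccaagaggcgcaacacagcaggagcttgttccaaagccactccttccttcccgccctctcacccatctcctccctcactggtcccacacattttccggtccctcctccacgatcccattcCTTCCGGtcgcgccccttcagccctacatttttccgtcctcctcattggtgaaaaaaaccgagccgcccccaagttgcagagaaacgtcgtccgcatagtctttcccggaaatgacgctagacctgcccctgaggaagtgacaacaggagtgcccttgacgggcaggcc
Gpx1: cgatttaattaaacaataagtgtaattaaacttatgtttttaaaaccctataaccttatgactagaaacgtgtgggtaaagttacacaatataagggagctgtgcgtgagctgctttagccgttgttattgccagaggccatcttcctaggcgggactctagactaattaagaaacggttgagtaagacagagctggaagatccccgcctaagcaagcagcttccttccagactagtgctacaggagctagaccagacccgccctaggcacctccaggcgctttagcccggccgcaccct

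Nnt was among the most abundant members once length was taken into account. Its gene lies at chr13:119335448-119408997 on the minus strand of GRCm38 (ENSMUSG00000025453.18), and its longest coding transcript in GENCODE, Nnt-202, has 17 exons and 3464 bases. As CPM per kb of the longest coding transcript, averaged over the 8 libraries, Gpx1 (35.3) and Nnt (34.6) stood highest, followed by Prdx5 (23.4), Gpx4 (23.0), Txn2 (18.4) and Prdx3 (13.7). The place of Prdx5 is uncertain and its value may be too low. Of its exon bases 32.4% also lie in Trmt112 on the opposite strand, where reads may be counted for neither gene. Sod2 (5.31) and Glrx2 (4.74) were lowest among the members with counts. The low rank of Sod2 depends on its transcript of 5861 bases, and gene counts do not tell which transcript was present. By median CPM, without regard to length, Sod2 (30.5) was level with Prdx5 (30.3) and above Gpx4 (21.4) and Prdx3 (20.0). The ranges of Gpx1, 24.5 to 41.9 CPM per kb, and of Nnt, 27.9 to 41.7, overlapped over the libraries, so these 2 have no order between them. The cytosol shares some of these proteins, and RNA levels do not tell the compartments apart: Gpx1, Gpx4, Prdx5 and Glrx2 products are found outside mitochondria as well.

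**Figure D1:**
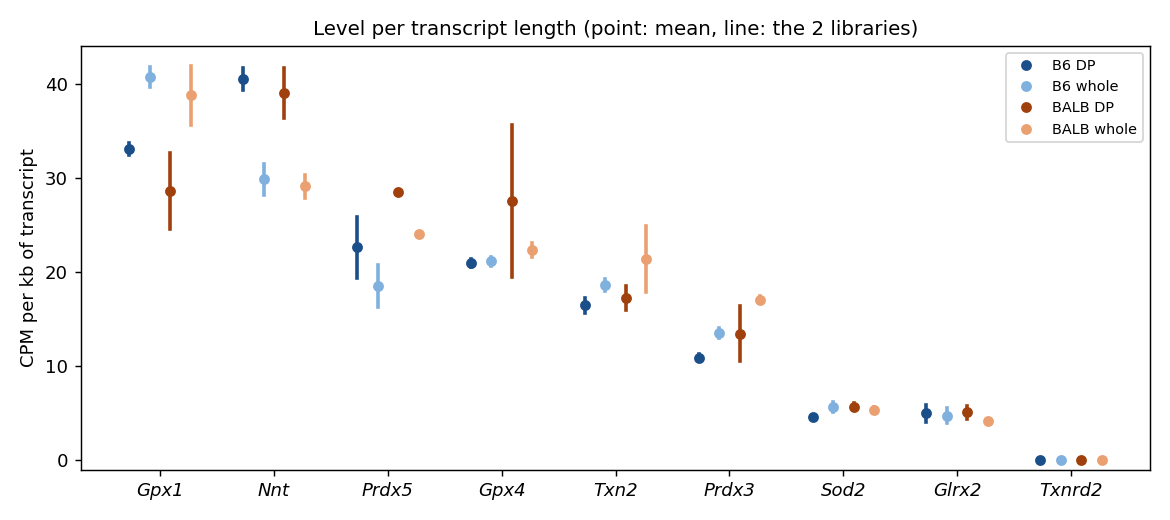
Level of each gene as CPM per kb of its longest coding transcript (vertical axis), with the mean (point) and both libraries (ends of the line) of each group in its own colour. Gpx1 and Nnt lie highest, Sod2 and Glrx2 low, and Txnrd2 has no counts. In Nnt both DP groups lie above both whole-thymocyte groups, and in Gpx1 the reverse holds for the group means.

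Nnt RNA was present at a like level in both strains and was lower in whole thymocytes than in sorted DP thymocytes of both. The 4 DP libraries held 144 and 136 CPM in B6 and 126 and 144 CPM in BALB. The 4 whole-thymocyte libraries held 97.7 and 109 CPM in B6 and 96.6 and 105 CPM in BALB. These values rest on 372 to 718 counts per library. Every DP library lay above every whole-thymocyte library, whereas the strains overlapped within each population. Ordered by mean, the groups ran from B6 DP (140 ± 5.80 CPM, SD, n = 2) through BALB DP (135 ± 13.2) and B6 whole thymocytes (103 ± 8.03) to BALB whole thymocytes (101 ± 6.01), and only the step from BALB DP to B6 whole exceeded the spread of the libraries.

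Between strains, the fitted log2 fold change of Nnt, BALB over B6, was -0.059 ± 0.12 (SE) in DP thymocytes, with a 95% interval of -0.32 to 0.20 and an adjusted p of 0.787. Here and below, p-values are those of edgeR's quasi-likelihood test, adjusted by Benjamini and Hochberg's method over 11409 genes, and a gene is said to rise or fall where the adjusted p is under 0.05. In whole thymocytes the log2 fold change was -0.037 ± 0.12 (interval -0.30 to 0.23, adjusted p = 0.95). Over both populations in an additive model it was -0.048 ± 0.084, with an interval from -0.23 to 0.14, which is a fold between 0.852 and 1.10. These values concern the RNA counted over the part of Nnt that the mm10 genome holds. Reads from exons missing there do not enter them.

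Between populations, Nnt fell from DP to whole thymocytes by 0.44 ± 0.12 on the log2 scale in B6 (adjusted p = 0.0366) and by 0.42 ± 0.12 in BALB (adjusted p = 0.0329). With the strains fitted together it fell by 0.43 ± 0.084 (adjusted p = 0.00346), which is 0.743 of the DP level with a 95% interval from 0.655 to 0.844. The strain-by-population interaction was 0.023 ± 0.17 (adjusted p = 0.98, interval -0.34 to 0.39). The joint call held in each of the 8 fits that left out 1 library, with adjusted p from 0.000433 to 0.019. The calls within a strain were each lost in 6 of those 8 fits, with adjusted p up to 0.306 in B6 and 0.171 in BALB, and both held only in the fits without 1 of the BALB DP libraries.

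Markers of other cells moved with the same contrast. In whole against DP thymocytes of B6, 7 of 8 mature thymocyte markers, 5 of 6 double-negative (DN) thymocyte markers, 10 of 13 myeloid and dendritic cell markers, 3 of 6 B cell markers and 5 of 8 thymic epithelial markers rose, and in BALB these were 8 of 8, 5 of 6, 9 of 13, 5 of 6 and 6 of 8. Of the DP thymocyte markers, 8 of 10 fell in each strain. Endothelial and mesenchymal markers rose in 2 of 4 cases in B6 and 1 of 4 in BALB, and erythroid markers in 1 of 2 in each. Of all tested genes 6.89% were higher and 3.27% lower in B6, and 10.6% and 6.59% in BALB. Summed levels of the myeloid list were 43.9 to 59.6 CPM in DP and 143 to 191 CPM in whole thymocytes, those of the B cell list 3.88 to 11.9 and 19.7 to 31.2 CPM, those of the epithelial list 53.7 to 76.5 and 101 to 189 CPM, and those of the DN list 42.3 to 47.0 and 116 to 149 CPM. Genes at 0 in both DP libraries of a strain are given for the mature, DN, myeloid, B cell and epithelial lists. In B6 DP they were Itgax and Flt3 (myeloid), Krt5, Krt8, Krt14 and Foxn1 (epithelial), Sfpi1 (DN) and S1pr1 (mature). In BALB DP they were Emr1 (myeloid), Pax5 and Blk (B cell), Krt14, Prss16, Foxn1 and Aire (epithelial), and Sfpi1 and Erg (DN). Each of these had counts in whole thymocytes of its strain. The part of these cells in the results for Nnt and the other members was not tested. In such bulk samples, fewer cells of a type and less RNA per cell cannot be told apart.

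**Figure D2:**
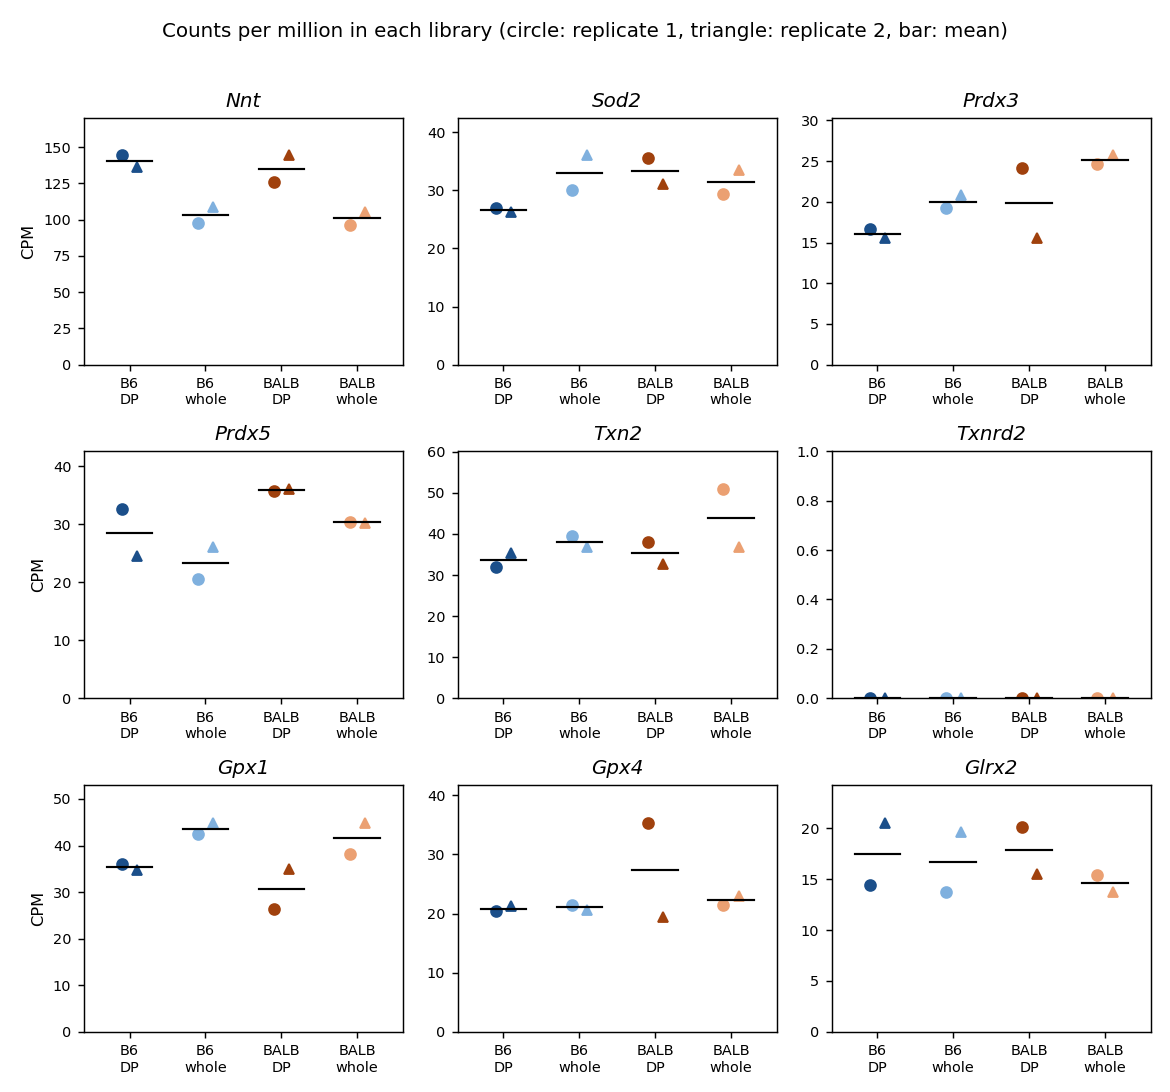
CPM (vertical axes, each from 0) of the 9 genes in the 8 libraries by group, with circles for replicate 1, triangles for replicate 2 and a bar at the mean. The 4 DP libraries of Nnt sit between 126 and 144 CPM, above the 4 whole-thymocyte libraries at 96.6 to 109, and BALB DP replicate 1 lies apart from replicate 2 in Prdx3 and Gpx4.

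Across all members, counts of calls were small. In DP thymocytes no member differed between strains (0 of 8, where 13.0% of all tested genes were called), and the same was so in whole thymocytes (0 of 8, against 4.59%). At an unadjusted p under 0.05 these counts were also 0, and DESeq2's Wald test and limma-voom called 0 in both. Over both populations 0 of 8 were called, against 10.8% of all genes, with 2 at an unadjusted p under 0.05 and 0 called by either other tool. From DP to whole thymocytes 1 of 8 members was called in B6 (against 10.2% of all genes) and 1 of 8 in BALB (against 17.2%). It was Nnt in both, where 3.27% of all genes were lower in B6 and 6.59% in BALB. With the strains fitted together 2 of 8 were called, against 20.5%: Nnt lower, where 8.01% of all genes were lower, and Gpx1 higher, where 12.5% were. The interaction had 0 of 8 called, against 0.123% of all genes, with 0 at an unadjusted p under 0.05 and 0 by DESeq2 or limma-voom. Members' shares near or below those of all genes say nothing particular about them. The median log2 fold change over the 8 members was 0.21 for strain in DP thymocytes, where the median of all genes was 0.0028, and 0.022 in whole thymocytes, where that of all genes was 0.018. From DP to whole it was 0.092 in B6 and -0.17 in BALB, where all genes had medians of 0.0023 and -0.0042. The medians that involve BALB DP rest on its replicate 1, the library that stood apart: without it the members' median was -0.033 for strain in DP thymocytes and 0.10 from DP to whole in BALB. The median in whole thymocytes was -0.033 without BALB whole replicate 2 and 0.077 without B6 whole replicate 2, and that in B6 ran from 0.039 without B6 DP replicate 1 to 0.25 without B6 DP replicate 2.

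**Figure D3:**
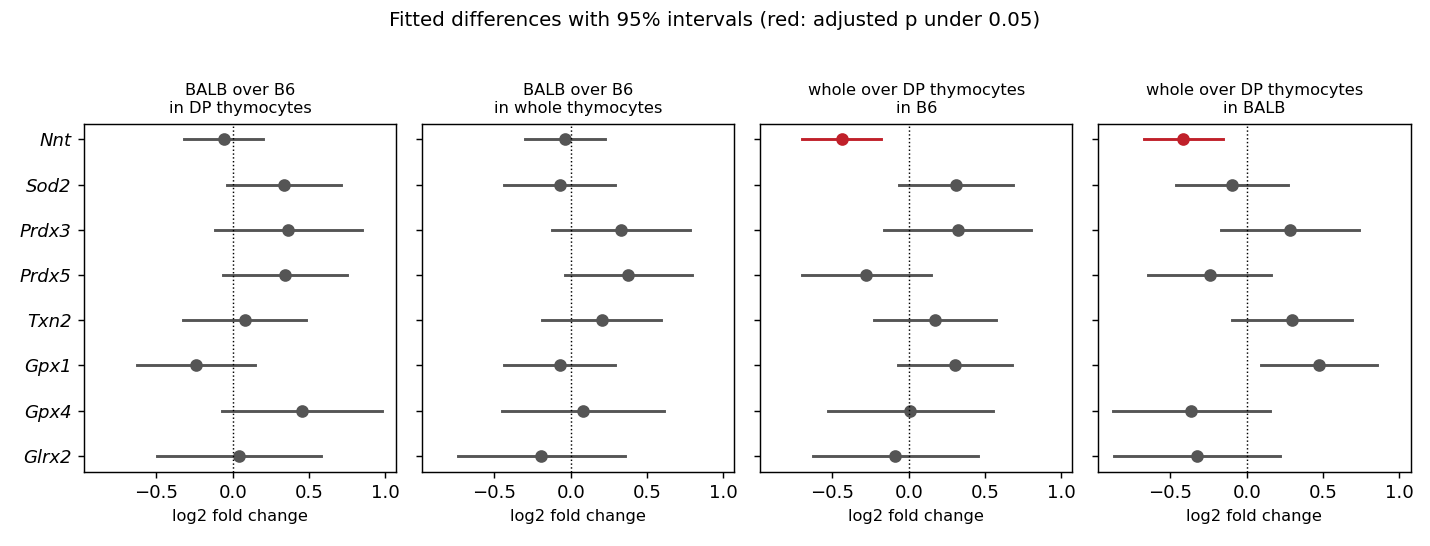
Fitted log2 fold changes (horizontal axes) of the 8 tested members with 95% intervals in the 4 comparisons of 2 groups, red where the adjusted p is under 0.05. Only Nnt from DP to whole thymocytes is red, at -0.44 in B6 and -0.42 in BALB, and the strain intervals of every member include 0.

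Sod2, the manganese superoxide dismutase of the matrix, lay at chr17:13006846-13040063. It measured 27.0 and 26.3 CPM in B6 DP, 30.0 and 36.0 in B6 whole, 35.6 and 31.1 in BALB DP and 29.5 and 33.5 in BALB whole thymocytes. Both B6 DP libraries were the lowest of the 8, and the other 3 groups overlapped. Neither the strain difference in DP thymocytes (0.34 ± 0.17, adjusted p = 0.22) nor the population difference in B6 (0.31 ± 0.17, adjusted p = 0.302) passed, and the interaction was -0.41 ± 0.24 (adjusted p = 0.555).

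The peroxiredoxins are the main peroxide reductases of the matrix. Prdx3 (chr19:60864051-60874556), the mitochondrial peroxiredoxin, had 16.6 and 15.5 CPM in B6 DP, 19.2 and 20.8 in B6 whole, 24.2 and 15.5 in BALB DP and 24.6 and 25.7 in BALB whole thymocytes. Both BALB whole libraries lay above both B6 whole libraries, while the BALB DP pair spanned nearly the whole range of the gene. Over both populations it differed between strains by 0.34 ± 0.15 (unadjusted p = 0.0417, adjusted p = 0.17). In DP thymocytes alone the difference was 0.36 ± 0.22 and became -0.047 without BALB DP replicate 1 and 0.61 without BALB DP replicate 2, where its adjusted p was 0.0269.

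Prdx5 (chr19:6906697-6910106), a peroxiredoxin of mitochondria, peroxisomes and cytosol, gave 32.6 and 24.5 CPM in B6 DP, 20.5 and 26.1 in B6 whole, 35.7 and 36.1 in BALB DP and 30.4 and 30.2 in BALB whole thymocytes. In each population both BALB libraries lay above both B6 libraries. The fitted strain difference over both populations was 0.36 ± 0.13 (unadjusted p = 0.0185, adjusted p = 0.106), and it stayed between 0.27 and 0.45 when each library was left out, with adjusted p of 0.0807 or more. Of its exon bases 32.4% lie in Trmt112 on the opposite strand, and the library kit did not keep strand, so reads of the 2 genes there cannot be told apart. HTSeq set 0.214% to 0.301% of reads per library aside as ambiguous, so reads from this stretch may be missing from the Prdx5 count.

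Thioredoxin 2 (Txn2, chr15:77915047-77929006), which passes electrons to both peroxiredoxins, had 32.0 and 35.4 CPM in B6 DP, 39.5 and 36.8 in B6 whole, 38.0 and 32.6 in BALB DP and 51.0 and 36.7 in BALB whole thymocytes. Only BALB whole replicate 1, at 51.0, lay outside the range of the others, and no neighbouring groups were separate. Over both strains the population difference was 0.24 ± 0.13 (adjusted p = 0.221). Its reductase Txnrd2 (chr16:18426384-18479073) had 0 counts in all 8 libraries, where 3 counts, the limit that a count of 0 allows, correspond to 0.526 to 1.16 CPM by library (counting error only). It was 1 of 5986 symbols, of 23420 listed, at 0 in every library. No source used here names the annotation behind the counts, so a symbol listed at 0 is reported as such and not as a gene without RNA.

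Glutathione peroxidase 1 (Gpx1, chr9:108338903-108340343) ran opposite to Nnt between populations. It had 36.1 and 34.7 CPM in B6 DP and 42.5 and 44.7 in B6 whole thymocytes, and 26.3 and 34.9 in BALB DP and 38.2 and 44.9 in BALB whole thymocytes. All 4 whole-thymocyte libraries lay above all 4 DP libraries, and the strains overlapped in both. With the strains fitted together Gpx1 rose by 0.38 ± 0.12 (adjusted p = 0.0452), a fold of 1.30 with an interval from 1.08 to 1.57. Within a strain it was 0.30 ± 0.17 in B6 (adjusted p = 0.316) and 0.47 ± 0.17 in BALB (adjusted p = 0.086). The joint call was lost in 7 of the 8 fits without 1 library, all but that without BALB DP replicate 2, with adjusted p up to 0.139, and in DESeq2's Wald test (adjusted p = 0.0782), and the marker shifts given for Nnt move with it too.

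Gpx4 (chr10:80047166-80056439), the peroxidase that reduces lipid hydroperoxides in membranes, had 20.4 and 21.3 CPM in B6 DP, 21.5 and 20.6 in B6 whole, 35.4 and 19.4 in BALB DP and 21.5 and 23.0 in BALB whole thymocytes. Apart from BALB DP replicate 1 the libraries lay between 19.4 and 23.0 CPM. The strain difference in DP thymocytes was 0.46 ± 0.24 (adjusted p = 0.237). It turned to -0.11 without that library and reached 0.78 (adjusted p = 0.00316) without the other, so its sign rests on 1 library. Likewise the BALB difference from DP to whole was -0.36 ± 0.24, became 0.19 without replicate 1 and -0.70 (adjusted p = 0.00554) without replicate 2 of BALB DP.

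Glutaredoxin 2 (Glrx2, chr1:143716338-143749676), which removes glutathione from protein thiols, was the member with counts at the lowest level. It had 14.4 and 20.6 CPM in B6 DP, 13.7 and 19.6 in B6 whole, 20.1 and 15.5 in BALB DP and 15.5 and 13.7 in BALB whole thymocytes. All neighbouring groups overlapped, and its strain difference over both populations was -0.074 ± 0.18 (adjusted p = 0.833).

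Across the 8 libraries the members did not move as 1 block. Described by Pearson's r of log2 CPM over 8 libraries, which share 2 strains and 2 populations, Nnt ran with Prdx5 (0.50) and against Txn2 (-0.79), Prdx3 (-0.72) and Gpx1 (-0.56). The highest value within the set was that of Prdx3 with Txn2 (0.65), closely followed by Sod2 with Prdx3 (0.63). The other peroxiredoxin, Prdx5, had -0.20 with Txn2. Of 11408 other genes, those most like Nnt were Sash3 (0.988), Kansl3 (0.986), Tapt1 (0.984), Med13 (0.980) and Hcfc1 (0.979). They were picked for this likeness, so a shared pattern follows from the choice and is no separate result. Med13, for one, averaged 885 CPM in B6 DP, 857 in BALB DP, 674 in B6 whole and 707 in BALB whole thymocytes. From DP to whole, Tapt1 was called lower in both strains and Med13 in B6 only (adjusted p = 0.0598 in BALB). Sash3, Kansl3 and Hcfc1 were called in neither strain, while each of these genes was called lower with the strains fitted together.

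Of 23 genes annotated within 500 kb of Nnt, 9 were in the files and 4 were tested: Paip1, 4833420G17Rik, Hmgcs1 and Zfp131. None of these passed, the smallest adjusted p in the comparisons of 2 groups being 0.0857, for Paip1. Paip1, a regulator of translation that starts 19.6 kb from the Nnt start, differed from DP to whole thymocytes by -0.37 in B6 (adjusted p = 0.0857) and by -0.075 in BALB (adjusted p = 0.721). Hmgcs1, of cholesterol synthesis, differed between strains by 0.18 in DP and -0.23 in whole thymocytes (adjusted p = 0.47 and 0.584).

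The other redox genes, 123 entries on 8 lists, were all in the files, 13 of them under an older symbol, and 106 were tested. Between strains 14 of 106 were called in DP thymocytes (5 higher in BALB, 9 lower), a share of 13.2% beside 13.0% of all genes, of which 6.85% were higher and 6.14% lower. In whole thymocytes 2 of 106 were called, both lower, 1.89% beside 4.59% (1.98% higher and 2.61% lower). From DP to whole, 12 of 106 were called in B6 (7 higher, 5 lower) and 15 of 106 in BALB (9 higher, 6 lower), which are 11.3% and 14.2% beside 10.2% and 17.2%. Of all genes 6.89% were higher in B6 and 10.6% in BALB. These shares are a description on few calls. Whether any of them differs from that of all genes was not tested. Many of the calls named below were lost when 1 of the 8 libraries was left out, and such losses are given with each. Other settings of scaling, filter, test or libraries also removed calls. From DP to whole, Nrf1 in B6 and Gabpa in BALB were lost in 5 of 9 such settings. Txnip in B6 and Bach1, Sesn1 and Txn1 in BALB were lost in 4 of 9. For strain in DP, Glud1 was lost in 4 of 9 and Glrx in 4 of 8. Apart from Aldh1l1, given below, the other calls named were lost in 3 at most.

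On the list of 18 tested genes for glutathione synthesis, reduction and transport, 2 fell and 1 rose in BALB DP against B6 DP, and 2 fell in whole thymocytes. Glutathione reductase (Gsr), which spends NADPH to regenerate glutathione, differed between strains in both populations. It measured 39.6 and 36.8 CPM in B6 DP and 56.0 and 49.8 in B6 whole thymocytes, and 13.7 and 19.0 in BALB DP and 10.4 and 13.2 in BALB whole thymocytes. Every B6 library lay above every BALB library. The log2 fold change, BALB over B6, was -1.27 ± 0.20 in DP (adjusted p = 0.0018) and -2.16 ± 0.20 in whole thymocytes (adjusted p = 5.22e-05), and both calls held without each library and in the 9 other settings. Between populations it was 0.47 ± 0.18 in B6 but -0.42 ± 0.23 in BALB. The interaction of -0.89 ± 0.29 did not pass (adjusted p = 0.294). Since reads of both strains were aligned to a B6 genome, an effect of sequence differences on a count cannot be told apart from strain here.

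The cystine importer Slc7a11, which supplies cysteine for glutathione, was lower in BALB and lower in whole thymocytes. B6 DP held 243 and 235 CPM and B6 whole 129 and 120, while BALB DP held 123 and 150 and BALB whole 75.8 and 78.9. B6 DP lay above all other libraries and BALB whole below them. The strain differences were -0.82 ± 0.12 in DP (adjusted p = 0.000914) and -0.69 ± 0.12 in whole thymocytes (adjusted p = 0.00538), and from DP to whole it fell by 0.94 ± 0.12 in B6 (adjusted p = 0.000487) and by 0.81 ± 0.12 in BALB (adjusted p = 0.000902). The whole-thymocyte strain call was lost in 2 of the 8 fits without 1 library (adjusted p up to 0.0902). The third strain call in DP thymocytes was Glrx, the cytosolic glutaredoxin, higher in BALB by 1.83 (adjusted p = 0.0367), a call that held only without BALB DP replicate 2 or 1 of the BALB whole libraries and was lost in 5 of 8 fits. From DP to whole, Gsto1, an omega-class glutathione transferase, rose by 1.97 in B6 and 2.18 in BALB from 0.942 to 2.29 CPM in DP, and Slc25a39, the mitochondrial glutathione importer, rose by 0.71 and 0.69. The Gsto1 calls, on 3 to 10 counts per DP library, were lost in 3 of 8 fits in B6 (without B6 DP replicate 1 or either B6 whole library) and 2 of 8 in BALB (without replicate 1 of either BALB group). The Slc25a39 calls were lost in 6 of 8 fits in B6, all but those without a BALB DP library, and in 3 of 8 in BALB (without BALB DP replicate 1 or either BALB whole library), with adjusted p up to 0.244 and 0.127.

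BACH1, which represses antioxidant response genes, was the one of 9 tested regulators and targets whose RNA fell from DP to whole thymocytes. Bach1 had 373 and 378 CPM in B6 DP, 260 and 264 in B6 whole, 266 and 293 in BALB DP and 213 and 224 in BALB whole thymocytes, so B6 DP was the highest group and BALB whole the lowest. It fell by 0.52 ± 0.10 in B6 (adjusted p = 0.00536) and by 0.35 ± 0.10 in BALB (adjusted p = 0.0273), and was lower in BALB DP than in B6 DP (-0.43 ± 0.10, adjusted p = 0.0129). Without 1 library these 3 calls were lost in 4 of 8 fits (each B6 library), 6 of 8 (all but the BALB DP libraries) and 2 of 8 (each B6 DP library). The ferritin heavy chain Fth1 was higher in BALB DP by 0.64 ± 0.14 (adjusted p = 0.00994), a call lost without either B6 DP library (adjusted p up to 0.0911). From DP to whole thymocytes Fth1 differed by -0.015 ± 0.14 in B6 and -0.18 ± 0.13 in BALB (adjusted p = 0.968 and 0.407). A link between Bach1 and the other genes of this list was not tested.

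**Figure D4:**
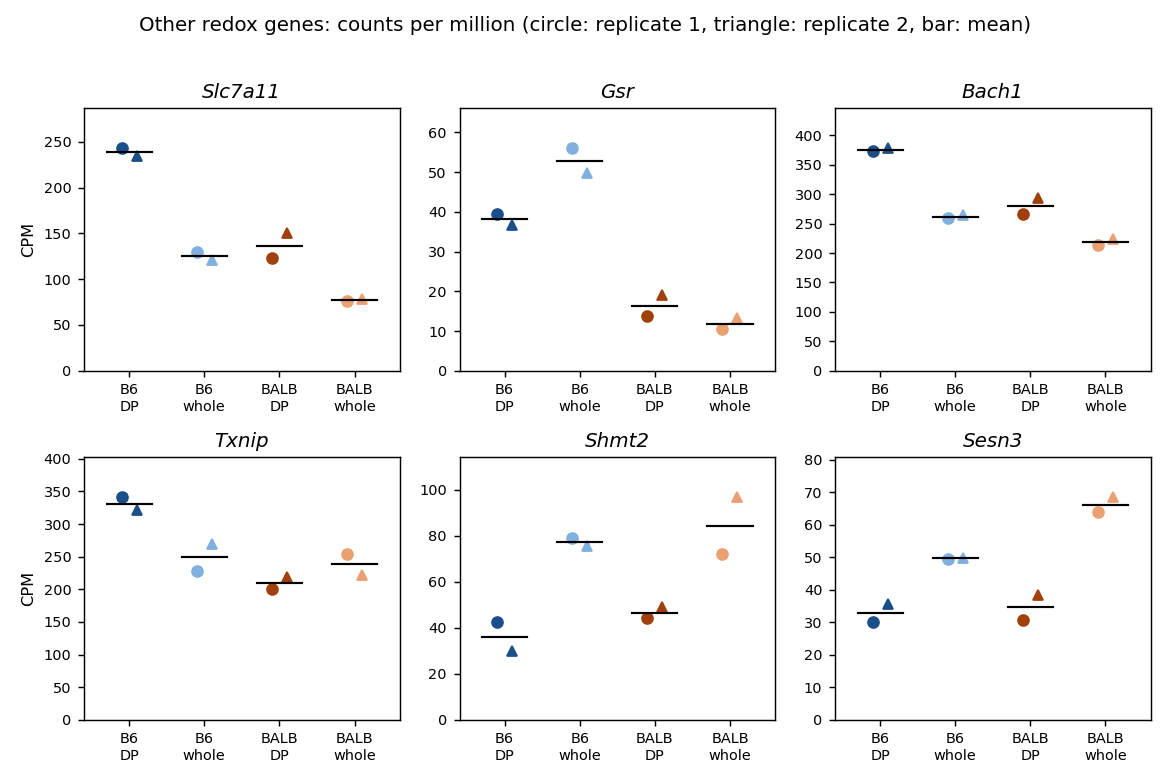
CPM (vertical axes, each from 0) of 6 other redox genes in the 8 libraries by group, circles for replicate 1, triangles for replicate 2 and a bar at the mean. Gsr separates the strains in both populations, Slc7a11 and Bach1 are highest in B6 DP, Txnip is highest in B6 DP, and Shmt2 and Sesn3 are higher in whole than in DP thymocytes.

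Among 7 tested genes of mitochondrial NADPH supply apart from Nnt, Shmt2, the serine hydroxymethyltransferase of the folate cycle, rose from DP to whole thymocytes by 1.11 ± 0.19 in B6 (adjusted p = 0.00316) and 0.87 ± 0.18 in BALB (adjusted p = 0.00695), opposite to Nnt. The BALB call was lost without BALB whole replicate 2 (adjusted p = 0.0846). Shmt2 measured 29.9 to 48.9 CPM in the DP libraries and 72.0 to 96.6 in the whole-thymocyte libraries, with no overlap. Between strains in DP thymocytes, Mthfd2, the next folate enzyme, was higher in BALB by 1.48 ± 0.26 (adjusted p = 0.00372), with 59.0 and 32.6 CPM in BALB against 16.0 and 17.8 in B6. Its relative Mthfd2l (-1.77, adjusted p = 0.0232) and glutamate dehydrogenase Glud1 (-0.48, adjusted p = 0.0484) were lower. The Mthfd2l call, on 9 and 3 counts in BALB DP, was lost in 5 of 8 fits and kept only without BALB DP replicate 2 or a BALB whole library. That of Glud1 was lost in 7 of 8, all but the fit without BALB DP replicate 2, with adjusted p up to 0.317. In the cytosolic NADPH list of 9 tested genes, Mthfd1 rose from DP to whole in B6 (0.92) and Pgd of the pentose phosphate pathway in BALB (0.54), and Aldh1l1 was lower in BALB DP (-1.90, adjusted p = 0.0396). The Mthfd1 call was lost in 3 of 8 fits (without B6 DP replicate 1 or either B6 whole library) and that of Pgd in 6 of 8, all but those without B6 DP replicate 1 or BALB DP replicate 2. The Aldh1l1 call, on 9 and 2 counts in BALB DP, was lost in 7 of 8, all but that without B6 whole replicate 1, and in 5 of 8 other settings.

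Of 12 tested genes of the cytosolic thioredoxin system, Txnip, which binds and inhibits thioredoxin, was lower in BALB DP than in B6 DP (-0.66 ± 0.12, adjusted p = 0.00347), with 201 and 218 CPM against 341 and 322. Its counterpart Txn1 was higher there by 0.55 (adjusted p = 0.0298), and Prdx6 was lower (-0.65, adjusted p = 0.022). The Txnip call held in all 8 fits without 1 library, while both others were lost without either B6 DP library and that of Txn1 also without BALB DP replicate 1. Of the antioxidant sestrins, Sesn3 rose from DP to whole (0.59 in B6, 0.96 in BALB) and Sesn1 fell (by 0.46 and by 0.39). Txnip also fell in B6 (by 0.41), and in BALB Prdx6 rose (0.55) while Txn1 fell (by 0.53). Of these, the Sesn3 call in BALB held in all 8 fits without 1 library. The Sesn3 call in B6 and the Sesn1 call in BALB were each lost in 6 of 8, all but those without a BALB DP library (adjusted p up to 0.268 and 0.159). The Sesn1 and Txnip calls in B6 were lost without any of the 4 B6 libraries (adjusted p up to 0.216 and 0.365), the Txn1 fall without either BALB whole library, and the Prdx6 rise in 7 of 8 fits, all but that without BALB DP replicate 1.

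The list of superoxide and peroxide removal outside the members, which holds Sod1 and catalase, had 8 tested genes and none passed between strains or between populations: the smallest adjusted p was 0.0915 for strain in DP thymocytes, with 2 genes at an unadjusted p under 0.05, and 0.157 from DP to whole in B6, also with 2. Among 17 tested genes of selenoprotein synthesis and selenoproteins, the class to which Gpx1, Gpx4 and Txnrd2 belong, the plasma selenium carrier Selenop (listed as Sepp1) was lower in BALB DP (-0.56, adjusted p = 0.0135) and rose in whole thymocytes of BALB (0.79, adjusted p = 0.00127), where the elongation factor Eefsec fell by 0.63 (adjusted p = 0.00394). Both BALB calls held in all 8 fits without 1 library, and the strain call of Selenop was lost without B6 DP replicate 2 (adjusted p = 0.173).

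Genes of mitochondrial content, on a list that also holds transcription factor genes such as Nrf1 and Gabpa, are given beside Nnt as a description. Of 26 tested, 2 rose and 1 fell from DP to whole in each strain, and 1 differed between strains in DP thymocytes, Vdac1 of the outer membrane, higher in BALB by 0.48 (adjusted p = 0.0348). That call was lost in 5 of 8 fits, all but those without BALB DP replicate 2 or a BALB whole library. The 26 genes ran from -0.37 to 0.80 from DP to whole in B6, with a median of 0.16, and from -0.45 to 0.74 in BALB, with a median of 0.035. Nnt, at -0.44, lay below all 26 in B6, where Nrf1 came nearest, and at -0.42 it lay within their range in BALB, where 2 genes were lower. The matrix chaperone Hspd1 rose in both, by 0.72 ± 0.12 in B6 (adjusted p = 0.00314) and 0.62 ± 0.12 in BALB (adjusted p = 0.00415). The other calls were Hspa9 (0.61) and the nuclear respiratory factor Nrf1 (-0.37) in B6, and Phb2 (0.43) and the ETS factor subunit Gabpa (-0.42) in BALB. The Hspd1 call in BALB held in all 8 fits without 1 library, and that in B6 was lost without B6 DP replicate 2 (adjusted p = 0.0567). Those of Hspa9 and Nrf1 were lost in 6 of 8, all but those without a BALB DP library (adjusted p up to 0.260 and 0.331), and those of Phb2 and Gabpa in 7 of 8, all but that without BALB DP replicate 2. Glrx, Txn1, Phb2 and Gabpa were named after their values were seen.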

How the data were processed

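RNA was sequenced in 8 libraries, 2 in each of 4 groups. The library kit, TruSeq RNA Sample Prep Kit v2 per the labels, keeps no strand. The submitters' processing notes name HISAT2 2.2.0, HTSeq, DESeq2 1.42.1 and the build mm10. HTSeq's version and the annotation are not given in these sources. The files deposited by the authors hold raw counts for 23420 gene symbols per library.

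Those counts were fitted with edgeR 4.0.16 (R 4.3.3). Of 17434 genes with a count, filterByExpr kept 11409, and TMM factors (trimmed mean of M values) scaled the libraries. A quasi-likelihood fit of 4 group means gave each comparison of 2 groups and the strain-by-population term, and an additive fit the 2 joint ones. CPM errors are SDs of 2 libraries. Alternatives used limma 3.58.1 and DESeq2 1.42.0. Gene positions are from GENCODE M21. All 9 genes were described, up to 4 called genes per other list named, and 5 genes named by likeness to Nnt. The genes and lists were chosen with earlier results of these data known.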

Additional observations from a re-analysis of the deposited data

How the results depend on the processing

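Nnt stayed lower in whole than in DP thymocytes in every setting run, and the call over both strains held in all of them, from -0.46 to -0.37. Within B6 the call was lost with upper-quartile scaling (-0.41), the strict filter (-0.38) and DESeq2's Wald test (-0.43), and within BALB with the same 3 (-0.35, -0.35 and -0.41) and with only the 4 libraries compared (-0.41). Members called then numbered 0 in B6 and 0 in BALB, and over both strains 1 in the Wald test. Without each library in turn, Nnt ranged from -0.52 to -0.37 in B6, -0.52 to -0.35 in BALB and -0.46 to -0.39 jointly, and for strain from -0.14 to 0.042 in DP, -0.11 to 0.045 in whole thymocytes and -0.090 to -0.016 over both, with the interaction from -0.097 to 0.10. Members called ranged from 0 to 2 for strain in DP, 0 to 1 from DP to whole in B6, 0 to 3 in BALB and 1 to 2 jointly.

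Without BALB DP replicate 1 and BALB whole replicate 1 together, values that were not called changed sign: Nnt to 0.033 (strain in DP), -0.033 (interaction) and 0.016 (strain over both), Sod2 to 0.11 (DP to whole in BALB), Prdx3 to -0.057 (strain in DP) and 0.39 (interaction), Txn2 to -0.067 and -0.078 (strain in DP and whole) and -0.011 (interaction), Gpx1 to 0.019 (strain in whole), Gpx4 to -0.12 (strain in DP), 0.24 (DP to whole in BALB) and 0.22 (interaction), and Glrx2 to -0.21 (strain in DP). Upper-quartile scaling turned the Prdx3 interaction to 0.0079. Without 1 library at a time, uncalled values that crossed 0 ranged as follows. For strain in DP, Prdx3 ran from -0.047 to 0.61, Txn2 from -0.056 to 0.18, Gpx4 from -0.11 to 0.78 and Glrx2 from -0.20 to 0.35. For strain in whole thymocytes, Sod2 ran from -0.20 to 0.068, Txn2 from -0.054 to 0.42, Gpx1 from -0.19 to 0.044 and Glrx2 from -0.42 to 0.086. From DP to whole in B6, Gpx4 ran from -0.026 to 0.059 and Glrx2 from -0.37 to 0.22, and in BALB Sod2 from -0.20 to 0.013 and Gpx4 from -0.70 to 0.19. For the interaction, Prdx3 ran from -0.30 to 0.36, Prdx5 from -0.18 to 0.22, Txn2 from -0.13 to 0.34, Gpx1 from -0.071 to 0.32, Gpx4 from -0.72 to 0.17 and Glrx2 from -0.56 to 0.044. A group left with 1 library is assumed to vary like the others. The cause of these changes was not tested.

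Counts over all genes moved as follows. For strain in DP thymocytes, 562 were called with only the 4 libraries (509 to 3493 without 1 library), and in whole thymocytes 839 without a filter, 325 with the strict one, 1050 with only the 4 libraries and 1046 without the pair of BALB libraries (214 to 966). From DP to whole in B6 these were 512 with the strict filter, 748 by Wald, 2568 with 4 libraries and 2809 without the pair (378 to 2201), and in BALB 910 with the strict filter and 1101 with 4 libraries (1040 to 3976). The interaction had 364 without a filter, 24 by Wald, 8 by limma-voom and 139 without the pair (0 to 1311). With the strict filter the joint fits gave 809 for strain (789 to 1446 without 1 library) and 1128 for population (1786 to 2844).

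Other redox genes called for strain in DP numbered 7 by Wald and 4 with 4 libraries (4 to 38 without 1 library), in whole thymocytes 5 with 4 libraries and 4 without the pair (1 to 4), from DP to whole in B6 6 by Wald, 23 with 4 libraries and 23 without the pair (3 to 20), in BALB 7 by Wald and 7 with 4 libraries (6 to 35), for the interaction 2 without a filter (0 to 9), and for strain over both 5 with the strict filter (5 to 8). These settings for other redox genes were chosen after seeing the data.

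Replicate numbers did not pair the libraries (correlations of replicate differences -0.038 to 0.057). The fit with a replicate block called 1033 genes from DP to whole in B6 and 1777 in BALB and changed no call of Nnt. With 2 libraries per group and 40 to 718 counts for each tested member and library, small differences in the low members could not be resolved.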
